A study of Homo sapiens with 8 samples.

Results

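KLK5 to KLK14 are 10 tissue kallikreins, secreted serine proteases encoded side by side in the kallikrein cluster of chromosome 19. They were taken as 10 of the 20296 genes that the array's transcript accessions named, and each was represented by its probe with the highest mean level over the 8 arrays. The study asked which genes respond to p53 in MCF10A, a line of human breast epithelial cells that do not form tumours, after DNA damage by adriamycin (ADR, also called doxorubicin). The samples were MCF10A cells with wild-type p53 (p53+/+) and MCF10A cells without p53 (p53-/-). Both genotypes were sampled untreated at 0 h and at 12, 24 and 48 h after ADR, which the labels give as 0.5 µg/ml for 2 h. Each of these 8 conditions was measured on 1 single-colour array, so no value has a replicate error. How the p53-/- line was made, and whether it is 1 clone, is not given in the sources used here.

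Tissue kallikreins are made as inactive precursors and act outside the cell once a short peptide is removed. In stratified epithelium they form a proteolytic cascade in which one kallikrein activates the next, and the active enzymes cleave the desmosomal proteins that hold surface cells together. Inhibitors of the Kazal type, of which the SPINK5 product is the best known, hold the cascade in check, and membrane-bound serine proteases such as matriptase act near its start.

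Levels are log2 processed signals (the spot intensity after the scanner software's background correction) minus the log2 of the array's own 75th percentile. A level below 0 is thus dimmer than that percentile. A probe was called well above background on an array where the scanner software marked most of its spots so. By this mark 65.9% and 66.53% of genes were well above background on the 0 h arrays, 64.92%, 62.83% and 64.58% on the treated p53+/+ arrays, and 67.85%, 70.32% and 74.32% on the treated p53-/- arrays. The 75th percentile of the processed signal ranged from 661.2 to 1014.9 on the p53+/+ arrays and from 879.3 to 1198.8 on the p53-/- arrays. All 8 arrays lay on 1 slide, with each genotype in a position column of its own, so that position and genotype cannot be told apart. Changes in p53+/+ cells are counted from the array labelled p53+/+ 0 h, whose label was not checked by a result given here, and they are given beside changes from the p53-/- 0 h array. Markers of basal epithelium were present, 5 of 6 being well above background on all 8 arrays. In bulk RNA of this kind, fewer cells of a type and less RNA per cell cannot be told apart.

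The kallikreins were dim in these cells. KLK5, KLK6, KLK8 and KLK9 were well above background on at least 1 array, and the other 6, KLK7 and KLK10 to KLK14, on none by the probe used for each. By the same rule 22.1% of all named genes were never well above background. On the p53-/- arrays of 0, 12, 24 and 48 h, 2, 0, 3 and 3 kallikreins passed this mark. On the p53+/+ arrays 3, 3, 1 and 3 did. No kallikrein was well above background on all 8 arrays. KLK8 was well above background in treated p53+/+ cells alone, at 12 and 48 h. With its p53-/- readings raised to the lowest level well above background, its treated mean was 2.47-fold higher in p53+/+ cells. This value is not a strict minimum, since it includes the p53+/+ 24 h reading, which was not well above background. KLK8 entered the comparison only through the group in which it was high, so its fold and its call are descriptions. KLK5 was higher by 0.88 on the log2 scale in treated p53+/+ cells under the scaling used here and by 0.28 without scaling. Neither call held in every setting, since that of KLK8 was lost when the 24 h arrays or those of 48 h were left out, and that of KLK5 without scaling or without any 1 of the 3 time points.

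**Figure D1:**
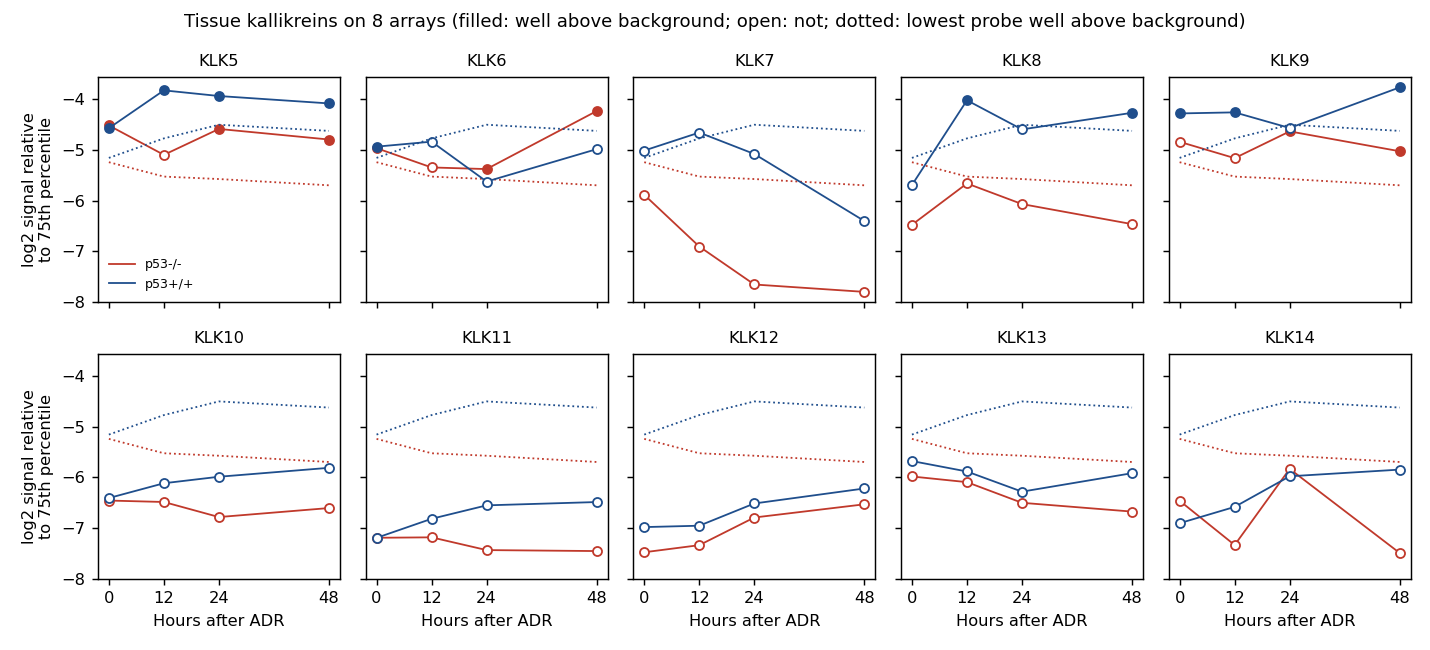
Levels of KLK5 to KLK14 by hours after ADR in p53-/- (red) and p53+/+ (blue) cells, as log2 signal relative to the array's 75th percentile, 1 array per point. Filled points were well above background and open points were not, and the dotted lines give the lowest level at which any probe was well above background on each array. KLK8 had filled points on the p53+/+ 12 h and 48 h arrays alone, and the panels of KLK7 and KLK10 to KLK14 hold open points throughout.

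KLK5, a trypsin-like kallikrein that can activate the precursors of KLK7 and KLK14, was well above background on 7 arrays. In p53-/- cells its level was -4.52, -5.10, -4.59 and -4.80 at 0, 12, 24 and 48 h. In p53+/+ cells it was -4.57, -3.83, -3.94 and -4.08 at the same times. The genotypes stood together at 0 h, and every treated p53+/+ array lay above every treated p53-/- array. The p53-/- 12 h value, the lowest of the 8, was the one that was not well above background. The underlying signals were small, between 32.65 and 57.63 intensity units, and the 2 spots of the probe differed by 0.04 to 0.71 on the log2 scale. From 0 h, KLK5 fell short of a 2-fold change on every treated array of either genotype. On the log2 scale the p53+/+ changes were 0.75, 0.63 and 0.49, and the p53-/- changes were -0.58, -0.07 and -0.28.

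KLK8, a trypsin-like kallikrein also known as neuropsin and expressed in skin and brain, was well above background on 2 arrays, both of treated p53+/+ cells. In p53-/- cells it read -6.48, -5.66, -6.07 and -6.46 at 0, 12, 24 and 48 h, never well above background. In p53+/+ cells it read -5.69, -4.02, -4.60 and -4.27, where the 24 h value lay under the lowest probe well above background on that array. The 3 treated p53+/+ readings were the highest of the 8. Signals ran from 9.87 to 50.31 intensity units, and the 2 spots differed by 0.13 to 1.58 on the log2 scale, with a median of 0.29. Where 1 side is not well above background, a fold is given as a bound against the lowest probe that was, or against the gene's own reading where that was higher. By that bound KLK8 was at least 2.20-fold higher at 12 h than on the array labelled p53+/+ 0 h, and at least 1.85-fold higher at 48 h.

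KLK9, a chymotrypsin-like member whose gene is the neighbour of KLK8, was well above background on 5 arrays. Its level was -4.84, -5.16, -4.64 and -5.03 in p53-/- cells at 0, 12, 24 and 48 h. In p53+/+ cells it was -4.28, -4.26, -4.57 and -3.77. The highest value was that of p53+/+ cells at 48 h, and at 24 h the genotypes lay 0.07 apart. KLK9 was read from 1 spot per array, so no spread between spots is known.

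KLK6, a trypsin-like enzyme also called neurosin, was well above background on 4 arrays. In p53-/- cells its level was -4.97, -5.35, -5.38 and -4.23 at 0, 12, 24 and 48 h. In p53+/+ cells it was -4.94, -4.84, -5.62 and -4.99, well above background at 0 h alone. The highest value was in p53-/- cells at 48 h, where KLK8 was the higher in p53+/+ cells, and the treated genotypes overlapped. The probe had 1 spot per array. A second KLK6 probe, with 2 spots, was never well above background and ranged from -7.24 to -5.84, so the levels of KLK6 rest on 1 of its 2 probes.

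The other 6 kallikreins gave no fold. KLK7, the chymotrypsin-like enzyme of the stratum corneum that cleaves corneodesmosin, read -5.89, -6.91, -7.65 and -7.80 without p53, and -5.01, -4.66, -5.08 and -6.40 with it. No fold is given, since KLK7 was not well above background on any array and its brightest signal was 32.37 intensity units. KLK14, a trypsin-like partner of KLK5 and KLK7 in the epidermal cascade, ranged from -7.49 to -5.83. Its treated genotypes overlapped.

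KLK10, first described as a gene expressed in normal mammary epithelium and reduced in breast cancer, ranged from -6.78 to -5.81 over the 8 arrays. Its 2 spots differed by 1.54 to 2.67 on the log2 scale on every array, more than the 0.97 between its highest and lowest array, so its level is poorly set. KLK11 was printed in 10 spots and ranged from -7.45 to -6.49, with an SD between spots of 0.12 to 0.62. KLK12, a trypsin-like member, ranged from -7.48 to -6.22. KLK13, also trypsin-like, ranged from -6.68 to -5.68 on the probe used. For these 4 genes no fold is given, because all of these values lay where the array does not separate signal from background.

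A second KLK13 probe, dimmer on average, stood apart on a single array. It read -7.16, -7.51, -7.32 and -7.67 without p53, and -7.26, -6.88, -6.60 and -2.60 with it. Only the p53+/+ 48 h value was well above background, it came from 1 spot, and the other KLK13 probe read -5.92 on that array. With limma this probe's treated difference was 2.14 (SE 1.09, adjusted p = 0.219).

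KLK5 was called higher in treated p53+/+ cells under the scaling used, a call lost without scaling, and KLK6 was not called. Their upstream sequences are shown, and no link between these letters and the levels was tested. Both are the 250 bases before the annotated start, on the minus strand of GRCh38.p14 as given by RefSeq, at chr19:50953039-50953288 for KLK5 and chr19:50969592-50969841 for KLK6. Capitals mark GGGCGG, the GC box, read on either strand.
KLK5: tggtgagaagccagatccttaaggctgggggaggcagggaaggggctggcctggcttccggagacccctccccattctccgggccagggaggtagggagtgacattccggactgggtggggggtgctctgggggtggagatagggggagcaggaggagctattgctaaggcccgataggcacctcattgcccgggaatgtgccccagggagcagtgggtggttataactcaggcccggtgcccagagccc
KLK6: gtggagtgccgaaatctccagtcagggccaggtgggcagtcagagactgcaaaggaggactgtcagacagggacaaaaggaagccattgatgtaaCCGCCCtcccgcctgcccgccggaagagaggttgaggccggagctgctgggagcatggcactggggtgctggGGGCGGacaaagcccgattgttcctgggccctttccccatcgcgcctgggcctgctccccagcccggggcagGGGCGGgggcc
KLK5 held no GC box in this stretch and KLK6 held 3. Promoter windows of 300 bases (250 before and 50 after the start) were given for 9 of the 10 kallikreins, 16 windows in all. GGGCGG was found on either strand in 10 of the 16 windows and in 6 of the 9 genes, KLK6, KLK7, KLK9, KLK11, KLK13 and KLK14, compared with 45.0% of the 35116 windows of all genes. Windows of the same gene can overlap, as those of KLK7 did, so the same GC box can count more than once. The 45.0% is a share of windows, and no share of genes is given. TATAAA was in none of the 16 windows (11.5% of all windows), and neither was TGANTCA, the AP-1 motif (7.71%). The p53 half-site was in none of the 16, against 6.63% of all windows. Both strands were searched for each motif. These counts describe the letters in these windows and carry no information on whether a factor binds elsewhere in the cluster. The GC content of the 16 windows ran from 54.3 to 70.7%, and the median of all windows was 58.7%.

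The treated genotype difference asked which genes differ between the genotypes once ADR has been given, with no use of the 0 h arrays. The 3 time points of a genotype stood in for replicates in limma, so an adjusted p sets a difference against movement over time and not against replicate error. Of 28947 probes tested, 10.6% were called higher in p53+/+ cells and 7.40% lower, at an adjusted p under 0.05. Among the kallikreins 4 were tested, and 2 of them, KLK8 and KLK5, were called higher and 0 lower. KLK8 had entered the test through the treated p53+/+ arrays alone, the group in which it was high, so its call is given as a description.

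For KLK8 the mean over the treated arrays was -4.30 ± 0.29 in p53+/+ cells and -6.06 ± 0.40 in p53-/- cells (SD over the 3 time points). Of these 6 readings 4 were not well above background, among them that of p53+/+ cells at 24 h. With the p53-/- readings raised to the lowest level well above background on their arrays, KLK8 was 2.47-fold higher in treated p53+/+ cells. That value is not a strict minimum, since it includes the p53+/+ 24 h reading. The readings themselves differed by 1.77 on the log2 scale (SE 0.27, limma adjusted p = 0.00845, or 0.00823 with every probe tested and no filter). The call was lost without the 24 h arrays (1.92, limma adjusted p = 0.112) and without the 48 h arrays (1.56, limma adjusted p = 0.0515).

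For KLK5 the treated means were -3.95 ± 0.13 in p53+/+ cells and -4.83 ± 0.26 in p53-/- cells. The difference was 0.88 (SE 0.20, limma adjusted p = 0.0308). Without scaling it was 0.28 (limma adjusted p = 0.389), and with each array centred on its probes that were never well above background it was 0.06 (limma adjusted p = 0.837). The call was also lost in fits with fewer arrays or residual degrees of freedom, and why it was lost was not tested. The difference was 0.68 without the 12 h arrays (limma adjusted p = 0.156) and 0.99 without the 24 h arrays (limma adjusted p = 0.191). It was 0.96 without the 48 h arrays (limma adjusted p = 0.0967) and 0.88 with time as a block (limma adjusted p = 0.0611). KLK9 differed by 0.74 (SE 0.27, limma adjusted p = 0.106) and KLK6 by -0.16 (SE 0.38, limma adjusted p = 0.808). Neither passed the threshold, though KLK9 did with normexp background correction (0.61, limma adjusted p = 0.0205).

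The level of the dim probes themselves differed between the genotypes. The 13444 probes that were never well above background were higher by a median of 0.78 on the log2 scale in treated p53+/+ than in treated p53-/- cells, and by 0.18 before scaling. The tested probes had a median difference of 0.09. The treated differences of KLK5 and KLK9 were thus close to those of probes without a measured signal. The difference of KLK8, with its p53-/- readings raised to the lowest level well above background, was 1.30 on the log2 scale. Over 6 scalings, among them quantile normalization and normexp background correction, the mean difference between the readings of KLK8, most of them not well above background, ran from 0.88 to 1.77. The readings of KLK7, never well above background, also stayed above 0 in all 6 scalings, from 0.80 to 2.07. KLK5 ran from 0.06 to 0.88. KLK9 changed sign among the scalings, from -0.08 to 0.74, and KLK6 ran from -0.98 to 0.27. The scalings moved the median difference of all tested probes from 0.09 to -0.51 with no scaling, to 0.28 with normexp and to -0.73 with centring on dim probes. Part of each kallikrein's spread in the plot of 6 scalings is this common shift.

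**Figure D2:**
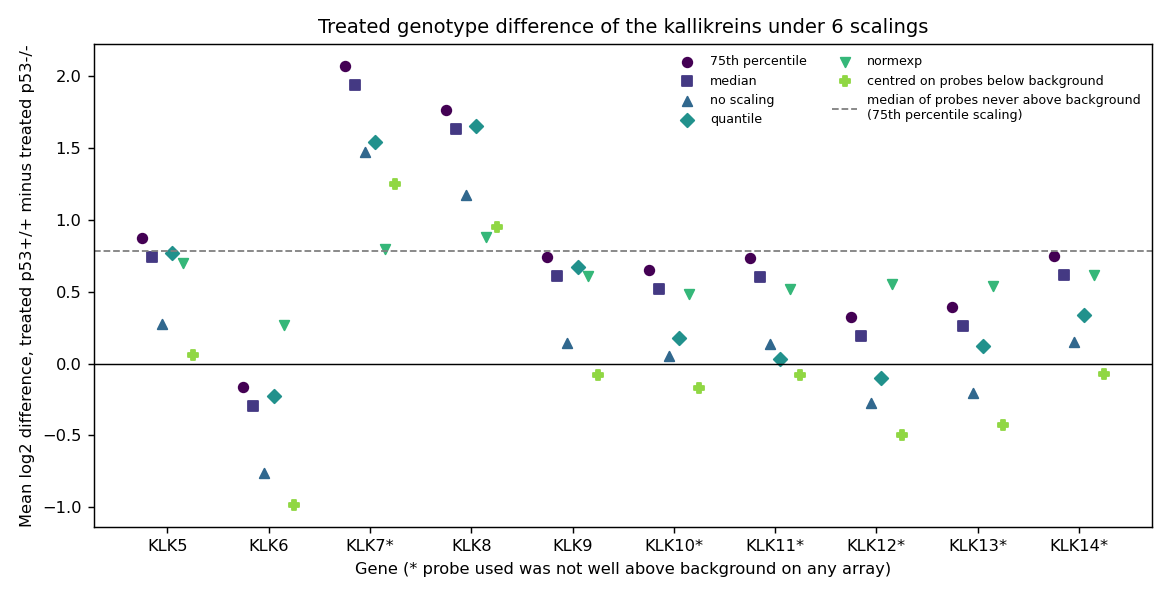
Mean log2 difference of each kallikrein between treated p53+/+ and treated p53-/- cells (3 arrays each) under 6 scalings, 1 symbol per scaling. The dashed line marks 0.78, the median difference of probes that were never well above background under 75th percentile scaling, and an asterisk marks genes whose probe used here was never well above background, so that its symbols are differences between readings and not measured changes. The readings of KLK8 differ by 0.88 to 1.77 and those of KLK7, never well above background, by 0.80 to 2.07. KLK5 runs from 0.06 to 0.88 and KLK9 crosses 0.

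At single time points, with no test, KLK8 was past 2-fold at 2 of the 3. At 12 h KLK5 was at least 2.42-fold and KLK8 at least 2.84-fold higher in p53+/+ than in p53-/- cells, 2 of 3 kallikreins with a value, where 12.3% of genes were at least 2-fold higher and 8.82% lower. At 24 h none of 3 passed 2-fold (12.7% of genes higher and 11.2% lower). At 48 h KLK8 was at least 2.69-fold and KLK9 2.40-fold higher, 2 of 4 (15.6% higher and 12.0% lower). No kallikrein was 2-fold lower in p53+/+ cells at any time. At 0 h none of 3 differed 2-fold between the genotypes, where 3.27% of genes were higher and 4.27% lower.

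The change after ADR within each genotype was described by size alone. In p53-/- cells no kallikrein rose or fell 2-fold at 12, 24 or 48 h, among 2, 3 and 3 with a value. Of all genes 3.75%, 7.22% and 10.6% were 2-fold higher at these times and 4.95%, 5.15% and 7.31% lower. In the 12 h comparison KLK5 and KLK6 were well above background on the 0 h side alone, so neither could be called higher. The largest change there was that of KLK6 at 48 h, 1.66-fold higher than at 0 h. In p53+/+ cells, counted from the array labelled p53+/+ 0 h, KLK8 at 12 h was past 2-fold, 1 of 4, where 12.4% of genes were higher and 9.94% lower. None passed at 24 h (15.7% and 13.1%) or at 48 h (16.7% and 11.7%). From the p53-/- 0 h array, KLK8 at 12 h was at least 2.33-fold higher (where 13.0% of genes were higher and 10.1% lower) and KLK9 at 48 h at least 2.11-fold higher (16.6% and 11.4%). None passed at 24 h on that baseline (15.4% and 12.2%).

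Whether the response to ADR differed between the genotypes was tested as the interaction of genotype and treatment over the 8 arrays, which includes the array labelled p53+/+ 0 h. Of the tested probes 0.940% were called in the direction of p53+/+ cells and 0.746% in the other. Among the 4 kallikreins tested 0 were called by limma at the adjusted threshold, and 0 at an unadjusted p under 0.05. KLK5 came nearest, with 0.93 (SE 0.41, limma adjusted p = 0.314). KLK8 followed with 0.99 (SE 0.55, limma adjusted p = 0.416). Each untreated arm of this fit was 1 array, so a p that misses the threshold here does not show that the responses were alike.

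Among themselves the kallikreins did not follow one course. Over the 8 arrays Pearson's r was 0.73 between KLK5 and KLK9, or 0.30 without scaling, -0.16 between KLK5 and KLK6, and -0.04 between KLK6 and KLK9. The points share slide and scaling, and these values are descriptions. The genes outside the family whose levels ran most like the mean standardised profile of KLK5, KLK6 and KLK9 were GABRP (r = 0.94), ARHGAP40 (0.88), PDE5A (0.87), CNN2 (0.87) and CREB5 (0.85), over 8 arrays and 5245 genes.

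Among the other kallikrein genes of the cluster, KLK1, tissue kallikrein proper, which releases kinin from kininogen, had the widest movement. It read -4.84, -4.73, -2.67 and -1.62 in p53-/- cells at 0, 12, 24 and 48 h. In p53+/+ cells it read -5.29, -4.32, -3.60 and -5.26, and was well above background at 24 h alone. In p53-/- cells it was at least 4.51-fold higher at 24 h and at least 9.32-fold higher at 48 h than at 0 h, a course that none of KLK5 to KLK14 showed. At 48 h it was at least 8.05-fold higher in p53-/- than in p53+/+ cells, while over the 3 treated times limma gave -1.39 (SE 0.82, adjusted p = 0.281). KLK2 was well above background on all 8 arrays, with levels from -4.34 to -3.46, by 1 of its 2 probes. The other ranged from -7.87 to -6.73 and was never well above background. KLK3, which encodes prostate-specific antigen, KLK4, KLK15 and the pseudogene KLKP1 were never well above background. Of 9 other genes of the cluster and its flanks, 4 were tested and 0 were called in either direction by limma.

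Inhibitors of kallikreins and related serine or cysteine proteases were measured for 12 genes, of which 10 were tested. Of these, 3 were called higher in treated p53+/+ cells and 0 lower, beside 10.6% and 7.40% of all tested probes. The median difference was 0.66 on the log2 scale, against 0.09 over all tested probes. This list and the next 2 were chosen with earlier results known. Their calls are given under 75th percentile scaling alone. SPINT2, a Kunitz-type inhibitor of matriptase and prostasin, stood at 2.22, 2.16, 2.43 and 3.34 without p53 over the 4 times, and at 2.04, 5.29, 5.47 and 5.50 with it. Its treated difference was 2.78 (SE 0.32, limma adjusted p = 0.0033). The related inhibitor SPINT1 differed by 0.73 (SE 0.18, limma adjusted p = 0.0356). Before scaling, its signals at 12, 24 and 48 h were 3093.84, 3586.68 and 2856.91 in p53+/+ cells. In p53-/- cells they were 2558.29, 3111.43 and 3045.94, so the order was reversed at 48 h. CST6, or cystatin E/M, an inhibitor of cysteine proteases in epidermis, stood at -0.93, 2.36, 3.84 and 4.64 in p53+/+ cells and between -1.10 and -0.64 on the p53-/- arrays. Its treated difference was 4.44 (SE 0.55, limma adjusted p = 0.00401).

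SPINK5, whose product LEKTI inhibits KLK5, KLK7 and KLK14, read -6.73, -6.81, -5.61 and -3.30 without p53, and -5.17, -3.76, -4.25 and -3.31 with it. It was well above background at 48 h in both genotypes, where the levels met, and also at 12 h in p53+/+ cells. These levels rest on the probe used, since the other SPINK5 probes were never well above background. SPINK6, another Kazal-type inhibitor of kallikreins, read -7.39, -4.66, -5.40 and -3.14 without p53, and -6.67, -4.46, -5.55 and -2.91 with it. Both genotypes were thus highest at 48 h. Neither gene passed the test of the treated difference (limma adjusted p = 0.269 for SPINK5 and 0.95 for SPINK6). SPINK9 and A2ML1 were never well above background.

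Of 12 proteases that activate kallikreins or act beside them, 10 were tested, and 3 were called higher and 1 lower in treated p53+/+ cells. Of all tested probes 10.6% and 7.40% were. The list's median difference was 0.11, against 0.09 over all tested probes. ST14, which encodes matriptase, stood at -1.30, -1.31, -1.20 and -0.99 without p53, and at -1.33, 1.64, 1.90 and 1.70 with it, a treated difference of 2.91 (SE 0.18, limma adjusted p = 5.075e-04). PRSS8, which encodes prostasin, stood at -1.18, -2.13, -1.70 and -0.63 without p53, and at -1.72, 2.57, 3.23 and 3.63 with it, a treated difference of 4.63 (SE 0.45, limma adjusted p = 0.00195). For both, every treated p53+/+ array lay above all 5 others. PLAT, tissue plasminogen activator, differed by 1.10 (SE 0.30, limma adjusted p = 0.048). CTSC, the dipeptidyl peptidase cathepsin C, was lower, by -1.65 (SE 0.31, limma adjusted p = 0.0168). ST14 and PRSS8 were well above background on all 8 arrays, as none of KLK5 to KLK14 was.

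Of 12 substrates and receptors, 7 were tested, and 3 were called higher in treated p53+/+ cells and 0 lower, where 10.6% and 7.40% of all tested probes were. The median difference was 1.33, against 0.09 over all tested probes. DSG3, a desmosomal cadherin, stood at -1.18, -2.54, -1.80 and -1.66 without p53, and at -1.97, 2.21, 2.97 and 2.85 with it, a treated difference of 4.68 (SE 0.32, limma adjusted p = 6.654e-04). DSC3, its desmocollin partner, differed by 3.55 (SE 0.33, limma adjusted p = 0.00156). IL1B, the precursor of interleukin-1 beta, differed by 3.94 (SE 0.40, limma adjusted p = 0.00222), although it was already at 2.67 on the array labelled p53+/+ 0 h and at -1.39 on the p53-/- 0 h array. F2RL1, the receptor PAR2 that KLK5 and KLK14 can cleave, differed by 0.15 (SE 0.17, limma adjusted p = 0.609). DSG1 and CDSN, the classical desquamation substrates of KLK5 and KLK7, and CAMP, the cathelicidin precursor, were never well above background.

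**Figure D3:**
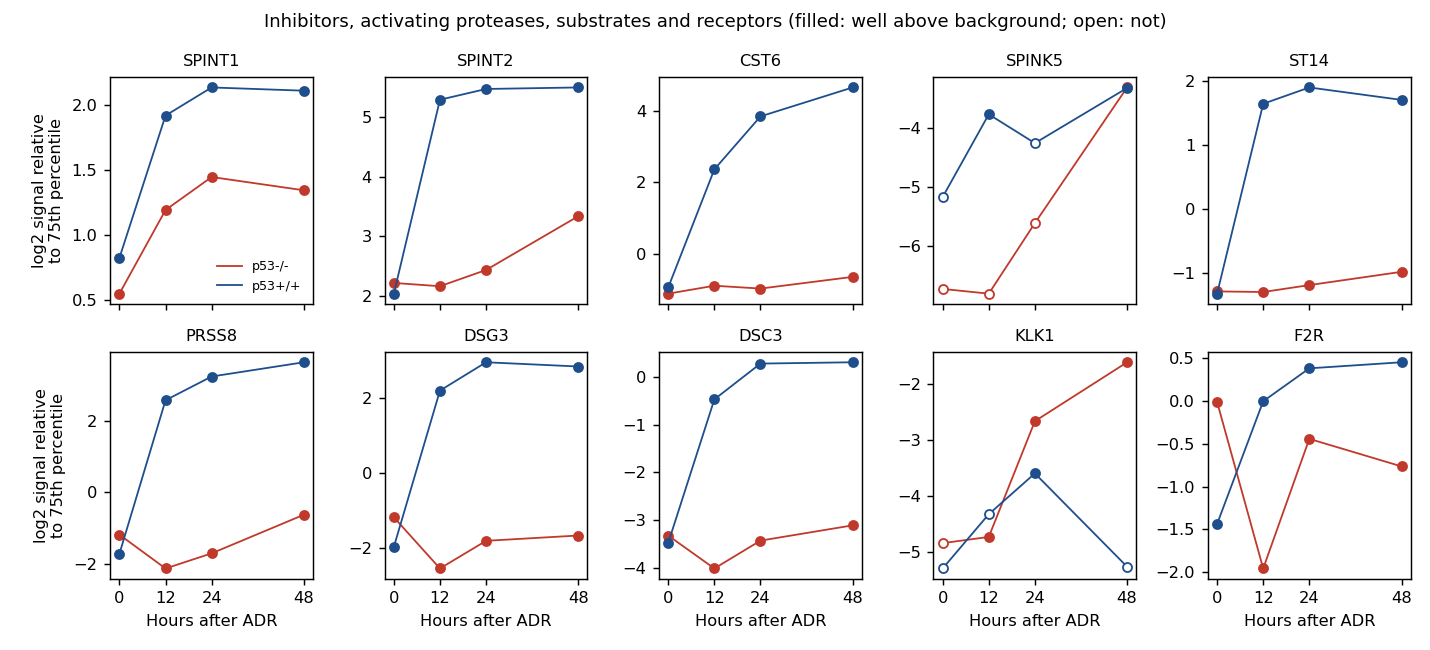
Levels of 8 genes that act on or beside the kallikreins, of KLK1 and of the receptor gene F2R by hours after ADR in p53-/- (red) and p53+/+ (blue) cells, as log2 signal relative to the 75th percentile, 1 array per point, with a separate vertical scale in each panel. Filled points were well above background and open points were not. SPINT1, SPINT2, CST6, ST14, PRSS8, DSG3, DSC3 and F2R separate the treated genotypes at every time. KLK1 climbs in p53-/- cells, and the genotypes meet at 48 h for the SPINK5 probe used.

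Marker sums differed between the treated genotypes on the same arrays. Each sum is the log2 of the added unlogged levels of its list, so a few bright genes can set it. The summed level of 6 fibroblast markers was 5.77 to 5.87 on the 0 h arrays, 5.71 to 6.07 in treated p53-/- cells and 2.11 to 2.39 in treated p53+/+ cells, with COL1A2 and COL3A1 never well above background. Of these 6 markers, 1 was well above background on all 8 arrays. That of 6 basal epithelial markers was 7.11 to 7.42, 6.72 to 7.03 and 8.25 to 8.53 in the same order, and that of 5 luminal or simple epithelial markers was 5.31 to 5.34, 5.31 to 6.02 and 6.14 to 6.66. The sum over 4 leukocyte markers was 1.43 to 1.57, 2.01 to 2.61 and 0.88 to 1.73, and over 4 endothelial markers -1.42 to -1.40, -1.48 to -0.98 and -2.48 to -2.13. The part of these shifts in the kallikrein and partner differences was not tested.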

How the data were processed

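RNA of MCF10A cells of 2 genotypes at 4 times was hybridised to 8 Agilent SurePrint G3 Human GE microarrays with 1 dye, 1 per condition. Genotype, treatment and time came from the sample labels. A check of the targeted gene is not reported here. The paper gives a higher ADR dose than the labels. The authors deposited the scanner output, whose processed signal is an intensity corrected for background by Agilent Feature Extraction 10.7.3.1 (per the submitters' processing notes). No normalization between arrays is named. Their summary table was identical in value (503808 of 503808 equal within 0.01%).

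Control spots and outlier spots were left out, log2 signals were set against the 75th percentile of their array and spots of a probe were averaged. Accessions named 27227 of 42391 probes (64.2%) through RefSeq genes of GRCh38.p14. The file headers name hg19, so coordinates are those of RefSeq and no probe was placed by position. The 28947 probes that were well above background on 1 array or more entered limma 3.58.1 (lmFit and eBayes, Benjamini-Hochberg) on genotype over the 6 treated arrays, and on genotype, treatment and their interaction over 8 arrays with 4 residual degrees of freedom. Fits were tested on simulated data. Other contrasts had 1 array per side and a 2-fold rule. Alternatives were quantile, median and no scaling, normexp (offset 50), averaging a gene's probes, other filters on dim probes, a 3-fold rule, another 0 h baseline, time points left out and time as a block. Centring on dim probes was chosen after seeing the data. Named genes were the 10 kallikreins, 4 lists (other genes of the cluster, inhibitors, activating proteases, substrates and receptors) and the 5 genes most alike in profile. Members and lists were chosen with earlier results of these data known. Precision is limited by the number of arrays. The software was R 4.3.3 and Python 3.11.15 with matplotlib 3.10.9, numpy 2.4.6 and pandas 2.3.3.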

Additional observations from a re-analysis of the deposited data

Results flagged for a closer look

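Under 75th percentile scaling, KLK5 moved in opposite directions in the genotypes at all 3 treated times. It was higher than at 0 h in p53+/+ cells and lower in p53-/- cells, and the mean changes differed by 0.93 on the log2 scale (interaction, limma adjusted p = 0.314). The same opposite course was seen for SPINK7, by 0.57 (limma adjusted p = 0.504), for DSG3, by 5.47 (limma adjusted p = 0.0193), and for F2R, which encodes the thrombin receptor PAR1, by 2.76 (limma adjusted p = 0.155). The opposite signs at all 3 times held in 6 of 6 scalings for DSG3 and F2R, in 4 of 6 for KLK5 and in 3 of 6 for SPINK7. Without scaling, KLK5 changed by 0.31 and 0.17 in p53-/- cells at 24 and 48 h and by -0.13 in p53+/+ cells at 48 h. With centring on dim probes these changes were 0.16, 0.06 and -0.05. DSG3 was the 1 gene of these 4 whose difference passed the threshold. All 4 are counted from 1 array at 0 h in each genotype. They were picked for this course from the named genes, and the share of all genes with such signs is not given. Under the same scaling the median of probes never well above background went from -7.11 to -7.36, -7.34 and -7.45 in p53-/- cells. In p53+/+ cells that median went from -7.05 to -6.68, -6.50 and -6.51. A second KLK13 probe, which the comparisons did not use, read -2.60 on the p53+/+ 48 h array and was not well above background on the other 7. It was 1 spot on 1 array.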

How the results depend on the processing

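The number of kallikreins called higher in treated p53+/+ cells by limma was 2. It was 1 with no scaling, with centring on dim probes, with time as a block and without the 12 h arrays. It was 0 without the 24 h arrays and 0 without the 48 h arrays. It was 5 of 10 tested with no filter on dim probes and 3 with normexp, where KLK9 also passed. The probes added with no filter were those never well above background, whose median difference was 0.78 under the scaling used. Shares of all probes or genes called are known for the main settings alone, so counts under other settings have no share beside them. By size these shares are for single time points. KLK8 passed in 9 of 11 alternatives (0.88 to 1.92, limma adjusted p from 0.00328 to 0.112) and KLK5 in 5 of 11 (0.06 to 0.99, limma adjusted p from 0.00602 to 0.837). The passes of KLK8 are a description, since most of its treated readings were not well above background. Except with no filter, it entered each fit through the group in which it was high. With the filter for probes well above background on all arrays no kallikrein was left to fit. By size, 3 kallikreins were higher in treated p53+/+ cells at some time and 0 lower. At single times 12.3%, 12.7% and 15.6% of genes were higher and 8.82%, 11.2% and 12.0% lower. No share of genes past 2-fold at any of the times is given for the counts by size. A gene well above background on 1 side alone could be called in the direction of that side only. The number higher was 1 with no scaling, with normexp and with the filter on both arrays compared, 5 with no filter and 0 with centring on dim probes. The number lower was 1 with no scaling and with that centring. In p53-/- cells the count of rises went from 0 to 1 (KLK6 at 48 h) with no scaling and with that centring, and of falls from 0 to 2 with no filter. In p53+/+ cells the count of rises went from 1 to 0 with quantile, median and no scaling, normexp, that centring, the stricter filter and the 3-fold rule, and to 2 with no filter or the p53-/- 0 h baseline. The count of falls went from 0 to 1 with no filter. The treated difference of KLK6 turned to 0.27 with normexp and 0.13 without the 48 h arrays, and that of KLK9 to -0.077 with the centring. The interaction of KLK9 turned to -0.62 with no scaling, -0.075 without the 48 h arrays and -0.58 with the centring, and that of KLK6 to 0.38 with normexp and 0.10 without the 48 h arrays. The cause of these moves was not tested. The labels carry no replicate numbers, so the genotypes were paired by time point alone, as the block on time, under which KLK8 passed (limma adjusted p = 0.0161) and KLK5 did not (limma adjusted p = 0.0611). Signal over background limits what can be said of all 10 kallikreins, since their levels lay near or under the dimmest probes well above background.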
